A study of Mus musculus with 24 samples.

Results

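The Hox genes, the clustered homeobox genes that give position along the body axis, were followed through mouse intestinal organoids and whole intestine. All protein-coding genes named Hoxa, Hoxb, Hoxc or Hoxd with a number were eligible, and each was read through a probe set that named it alone. In all 33 genes were read in this way, out of 30702 genes measured. They were 8 genes of cluster A, 9 of cluster B, 9 of cluster C and 7 of cluster D, with 1 probe set each. Hoxa7, Hoxa9, Hoxb4, Hoxd3 and Hoxd4 lay on probe sets that also named other genes and were not analysed here. The 24 single-colour arrays formed 6 groups of 4. These were organoids of adult intestine after 30 and after 3 days of culture, organoids of fetal intestine taken at E19 after 30 and after 3 days, whole adult intestine and whole P0 intestine, taken at birth. All organoids grew in ENR medium, and the labels give no strain, genotype, sex, segment of the intestine or exact adult age. Organoids are grown as epithelial cultures, whereas whole intestine also holds mesenchyme, muscle, vessels, nerves and leukocytes. Whether replicates came from different animals or cultures is not in the labels, and p-values therefore measure only the spread between these arrays, which may be technical.

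Hox proteins are transcription factors that bind DNA through a homeodomain, often beside the cofactors Pbx and Meis. Genes with the same number in different clusters are paralogues, and low numbers are used in anterior and high numbers in posterior parts of the embryo. In the gut they are best known from the mesoderm, where they set the regions of the tube and its sphincters, while the endoderm also expresses some of them. Paralogue numbers 1 to 3 are called anterior here, 4 to 8 central and 9 to 13 posterior.

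Promoters are shown for 3 genes of cluster A that were lower in fetal day 30 organoids than in P0 tissue (Hoxa2, Hoxa5 and Hoxa6), and for Hoxd8, which was lower in adult than in fetal organoids at both days. The windows run from 250 bases before to 50 bases after the start in RefSeq's GRCm38.p6 annotation and are written 5′ to 3′ on the gene's strand. Capitals mark CCAAT boxes in either orientation (CCAAT or ATTGG). The windows are chr6:52164782-52165081, chr6:52204538-52204837 and chr6:52208623-52208922, all on the minus strand, and chr2:74704365-74704664 on the plus strand.
Hoxa2: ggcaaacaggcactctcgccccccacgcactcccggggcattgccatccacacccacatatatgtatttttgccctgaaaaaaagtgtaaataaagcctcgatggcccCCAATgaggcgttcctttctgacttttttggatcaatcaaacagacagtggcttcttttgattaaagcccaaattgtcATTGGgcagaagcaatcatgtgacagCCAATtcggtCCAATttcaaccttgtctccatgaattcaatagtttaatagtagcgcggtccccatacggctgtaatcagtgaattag
Hoxa5: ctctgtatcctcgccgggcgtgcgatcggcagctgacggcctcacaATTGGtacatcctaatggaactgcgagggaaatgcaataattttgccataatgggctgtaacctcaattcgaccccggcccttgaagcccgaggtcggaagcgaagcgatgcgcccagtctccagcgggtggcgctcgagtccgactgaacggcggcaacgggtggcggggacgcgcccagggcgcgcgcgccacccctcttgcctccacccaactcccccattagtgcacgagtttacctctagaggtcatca
Hoxa6: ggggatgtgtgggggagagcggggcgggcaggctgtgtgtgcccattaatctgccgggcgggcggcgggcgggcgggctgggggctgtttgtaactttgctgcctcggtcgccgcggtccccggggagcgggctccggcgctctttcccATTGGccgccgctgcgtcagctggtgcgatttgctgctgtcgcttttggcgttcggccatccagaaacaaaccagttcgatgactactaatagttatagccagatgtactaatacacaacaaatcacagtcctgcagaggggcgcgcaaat
Hoxd8: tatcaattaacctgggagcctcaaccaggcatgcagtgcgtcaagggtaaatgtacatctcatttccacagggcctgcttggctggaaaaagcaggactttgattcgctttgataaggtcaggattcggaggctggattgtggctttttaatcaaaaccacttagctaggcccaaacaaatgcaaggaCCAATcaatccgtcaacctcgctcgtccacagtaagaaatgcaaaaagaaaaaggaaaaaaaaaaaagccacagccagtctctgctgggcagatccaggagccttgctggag
The Hoxa2 window held 4 CCAAT boxes and the other windows 1 each. Of 19 promoters listed for 17 members, 13 held at least 1, against 37.4% of all 32851 promoters in the table. The Pbx-Hox motif TGATNNAT, searched on both strands, lay once in the Hoxa2 window and in 4 of the 19 promoters, against 8.8% of all. A motif of the intestinal factor Cdx, TTTATNG on either strand, was found in 1 of the 19, that of Hoxb8, against 10.9% of all. CG pairs numbered 9 in the Hoxa2 window, 29 in that of Hoxa5, 26 in that of Hoxa6 and 6 in that of Hoxd8, against a median of 20 over the 19 and 7 over all promoters. These are counts of letters and show no binding.

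Hox signals were dim. The 792 member values lay between 2.08 and 6.62 on the log2 scale, and 0 of them exceeded the 95th percentile of the array's own negative control probe sets, which was 7.27 to 8.06. A gene was taken as above background in a group when all 4 arrays exceeded their median of negative controls, which lay between 3.84 and 4.38 in organoids and between 4.18 and 4.61 in tissue. By this measure 13 members were above background in all 6 groups (Hoxa6, Hoxb2, Hoxb3, Hoxb5, Hoxb6, Hoxb7, Hoxb8, Hoxb9, Hoxc4, Hoxc6, Hoxc9, Hoxd8 and Hoxd9), 12 in some groups and 8 in none. The 13 were 2 of 6 anterior, 8 of 12 central and 3 of 15 posterior members. In adult and fetal day 30 organoids 22 and 22 members were above background, in adult and fetal day 3 organoids 23 and 25, in adult tissue 13 and in P0 tissue 18. The control medians themselves were higher in tissue than in most organoid arrays, so these counts do not compare levels. Fetal day 3 replicate 1 had 32 of 33 members above their own mean over all arrays, and adult tissue replicate 4 had 29. The same 2 arrays had the highest median over all genes (5.22 and 5.21, against at most 5.10 on the others). Calls that ended without either are given for some members, and not every such call is listed. Arrays of fetal day 3 organoids also differed in 7 stomach markers, whose mean levels were 7.35, 9.30, 9.22 and 5.44 on replicates 1 to 4, against 4.57 to 6.43 in fetal day 30 and 4.67 to 5.38 in adult organoids. Their 5 pancreas markers had means of 4.67 to 7.68, against 4.38 to 4.65 in fetal day 30 and 4.51 to 5.75 in adult organoids. Of 9 leukocyte markers 4 were higher and 2 lower than in P0 tissue, against 30.5% and 13.8% of all genes. For the Hox members, comparisons of this group with 1 other group are therefore also given without replicates 2 and 3. This choice was made after the data were seen. Replicate 1 stays in those fits, with a stomach mean of 7.35 and a pancreas mean of 6.19, so they do not remove this signal. Counts for all organoids against both tissues, for the culture change and for lists of other genes use all arrays.

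**Figure D1:**
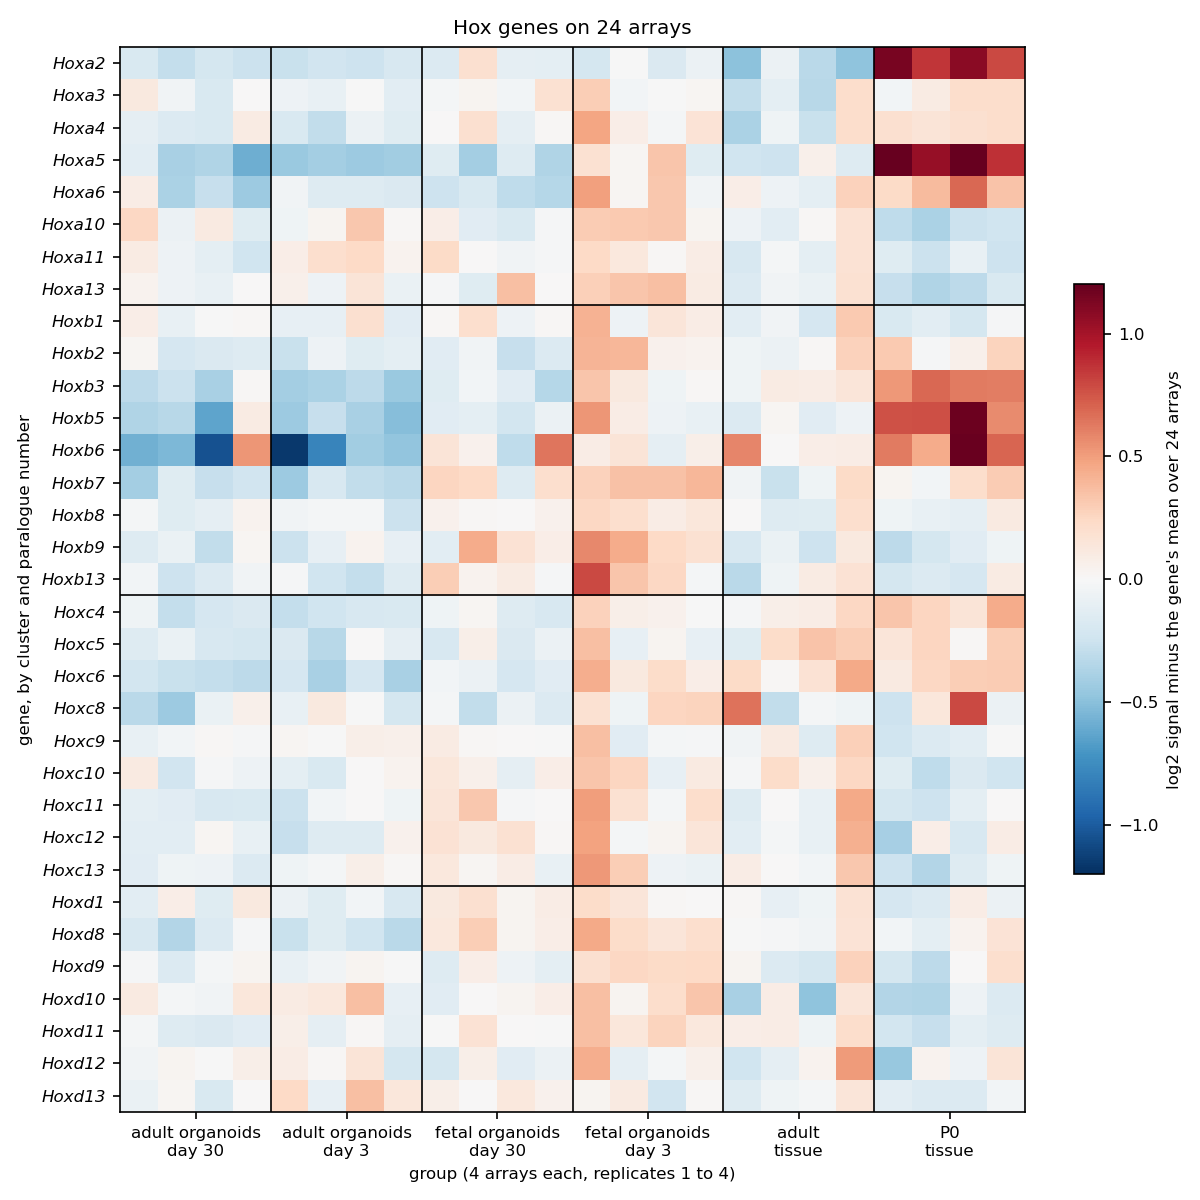
Each row is a Hox gene and each column an array, coloured by the log2 signal minus the gene's mean over the 24 arrays (red above, blue below; colours stop at 1.2). Hoxa2, Hoxa5, Hoxb3, Hoxb5 and Hoxb6 stand out in P0 tissue, and fetal day 3 replicate 1 is above the mean in 32 of 33 rows.

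The members varied most by group in the anterior and central genes. Group means of Hoxa5, whose product acts in the mesenchyme of lung and gut, spanned 1.53, those of Hoxb6 1.45, Hoxa2 1.31, Hoxb5 1.22 and Hoxb3 0.99 on the log2 scale, each with the highest mean in P0 tissue. Fetal day 3 organoids had the highest mean of 18 members and P0 tissue of 11. Adult day 3 organoids had the lowest mean of 14 members and P0 tissue of 12. Hoxb6 was also the least even gene within groups, with a pooled SD of 0.39, against 0.09 to 0.28 for the other members.

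Adult and P0 tissue differed in a small set of anterior and central Hox genes. Hoxa2, known for the hindbrain and branchial arches, Hoxa5, Hoxb5, known from the enteric nervous system, and Hoxb3 were lower in adult tissue. Hoxa2 read 4.15, 4.58, 4.33 and 4.17 in adult tissue, against 5.79, 5.51, 5.73 and 5.44 in P0 tissue. Hoxa5 read 4.61, 4.60, 4.91 and 4.70 in adult tissue, against 6.08, 5.90, 6.12 and 5.72 in P0 tissue. Every P0 array lay above every adult array for both genes, and in adult tissue 1 of 4 arrays was above background for Hoxa2 and 3 of 4 for Hoxa5. The log2 differences were -1.31 ± 0.10 (SE, adjusted p = 2.9e-10) for Hoxa2 and -1.25 ± 0.11 (adjusted p = 6e-09) for Hoxa5. Hoxb5 read 4.88, 5.06, 4.90 and 4.98 in adult tissue, against 5.80, 5.81, 6.21 and 5.60 in P0 tissue (-0.90 ± 0.14, adjusted p = 2.7e-05). Hoxb3 read 5.38, 5.53, 5.52 and 5.58 in adult tissue, against 5.95, 6.12, 6.05 and 6.05 in P0 tissue (-0.54 ± 0.09, adjusted p = 6.8e-05). Neither gene's groups overlapped. These 4 calls held with any array left out and under each other scaling, prior and fit. The filter on signal over the array's median does not check the calls of Hoxa2, Hoxa5 and Hoxb5. These genes passed it only through their P0 arrays.

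In the same comparison 6 of 33 members were called lower, against 12.2% of all genes, and 5 higher, against 15.0% of all genes. The members' median difference was 0.06 and that of all genes 0.08. The other lower members, Hoxa6 (-0.37 ± 0.12, adjusted p = 0.03) and Hoxa4 (-0.31 ± 0.11, adjusted p = 0.044), overlapped between groups and were chosen after their values were seen. Without adult tissue replicate 2 or 3 or P0 replicate 2 or 3 the call of Hoxa6 ended (adjusted p up to 0.13), and that of Hoxa4 ended without any array but adult tissue replicate 4 (adjusted p up to 0.15). All 5 higher members were posterior (Hoxa10, Hoxa13, Hoxc10, Hoxc13 and Hoxd11, 0.26 to 0.35), and none was above background in either tissue, so no change is read from them. Arrays centred on their median gave 2 higher and 8 lower, against 10% and 14.9% of all genes. Without adult tissue replicate 4 the counts were 2 and 8. No posterior member was lower, and no anterior or central member was higher.

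The markers of mesenchyme and smooth muscle moved with these genes. Of 13 measured, 12 were lower in adult than in P0 tissue and 0 higher. Their mean level over the list was 6.87 to 7.53 in adult tissue, against 8.38 to 8.94 in P0 tissue. The 6 endothelial markers were all lower too, with means of 5.32 to 5.68 in adult tissue, against 6.78 to 7.30 in P0 tissue, while 8 of 9 leukocyte markers were higher. Of 6 markers of enteric neurons and glia 4 were lower and 0 higher, with means of 4.94 to 5.24 in adult tissue, against 5.79 to 6.06 in P0 tissue. The part of these cells in the Hox differences was not tested, and in whole tissue fewer cells of a type and less RNA per cell cannot be told apart.

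**Figure D2:**
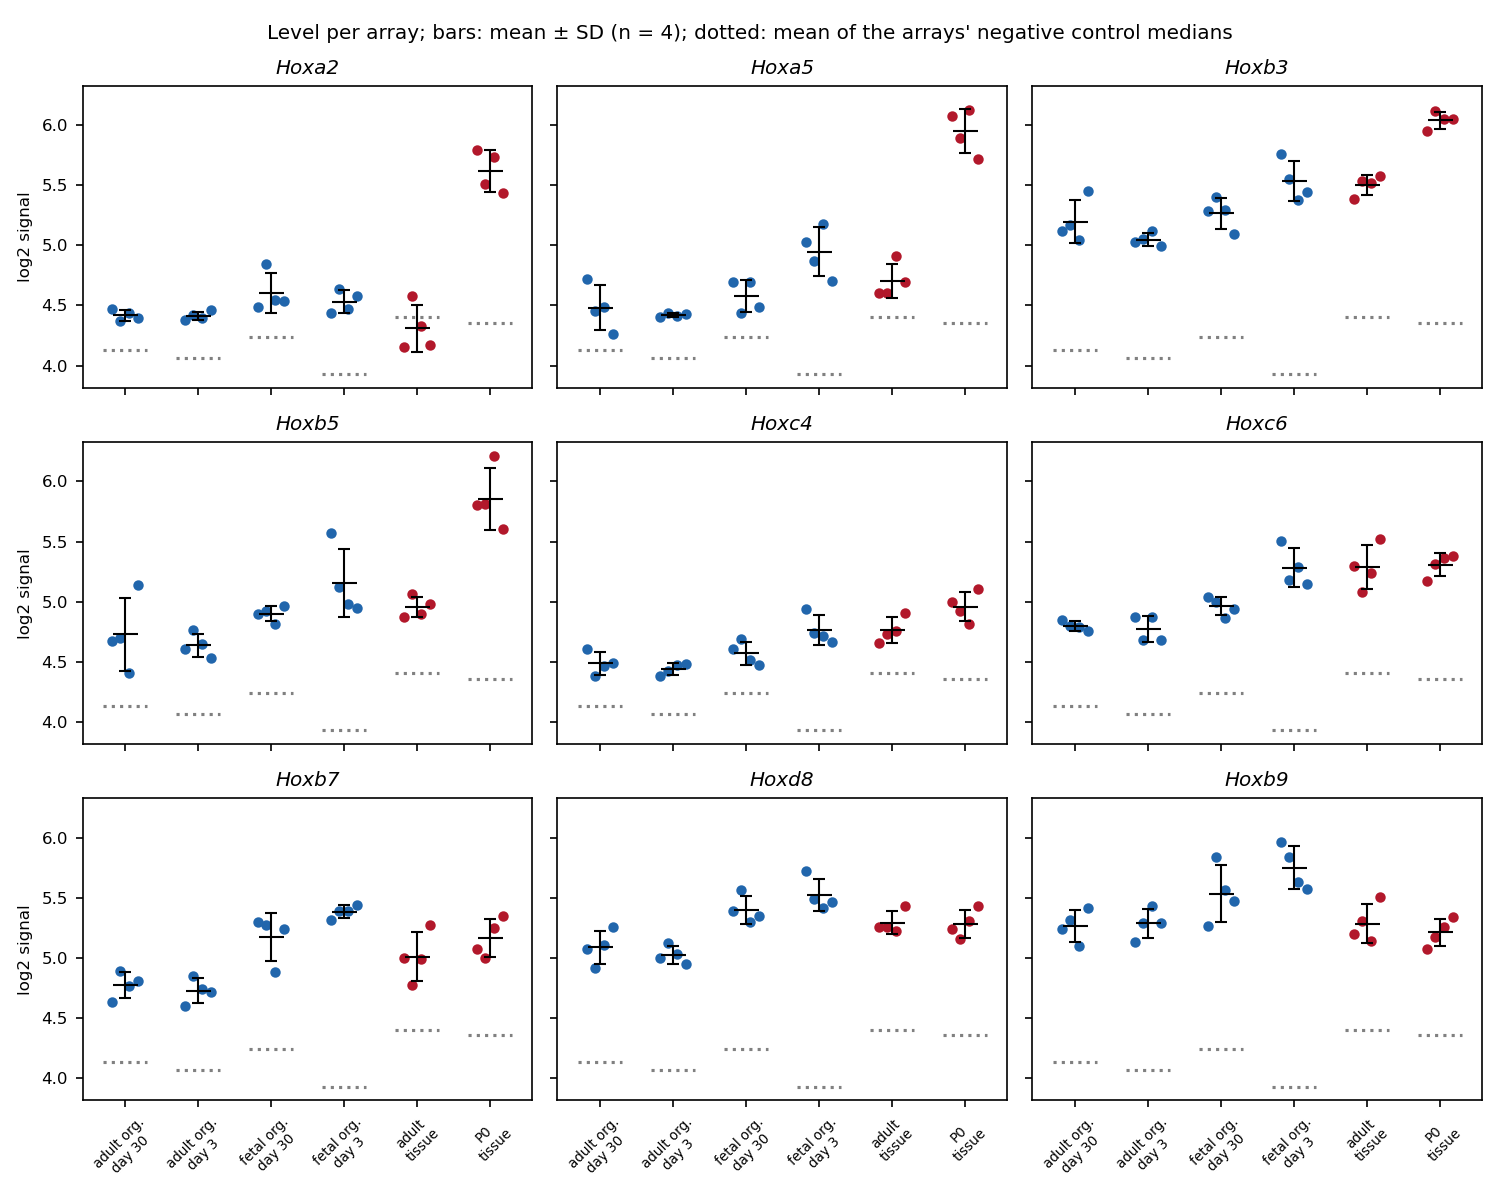
Log2 signal of 9 Hox genes on each array (blue, organoids; red, tissue), with mean and SD of 4 arrays and the mean of the arrays' negative control medians (dotted). P0 tissue lies above all other groups for Hoxa2, Hoxa5, Hoxb3 and Hoxb5, whereas Hoxb7 and Hoxd8 are higher in fetal than in adult organoids.

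Fetal day 30 organoids were set against P0 tissue, to see which members differ between epithelial culture and whole young intestine. The members lower in the organoids were 5 of 12 central and 3 of 6 anterior genes, led by Hoxa5, Hoxa2 and Hoxb5. Hoxa5 read 4.70, 4.44, 4.69 and 4.49 in fetal day 30 organoids, against the P0 values of 5.72 to 6.12 (-1.38 ± 0.11, adjusted p = 8.7e-10). Hoxa2 read 4.49, 4.85, 4.55 and 4.53 in the organoids, against 5.44 to 5.79 in P0 tissue (-1.01 ± 0.10, adjusted p = 1.3e-08). Both genes were still above background on all 4 organoid arrays. Hoxb5 read 4.90, 4.92, 4.82 and 4.96 in the organoids, against 5.60 to 6.21 in P0 tissue (-0.96 ± 0.14, adjusted p = 6.9e-06). Hoxb3 read 5.28, 5.40, 5.29 and 5.09 in the organoids, against 5.95 to 6.12 in P0 tissue (-0.78 ± 0.09, adjusted p = 2.9e-07). Hoxa6, the neighbour of Hoxa5 in cluster A, read 5.21, 5.28, 5.16 and 5.12 in the organoids, against 5.70, 5.84, 6.16 and 5.81 in P0 tissue (-0.68 ± 0.12, adjusted p = 9.8e-05). No organoid array reached a P0 array for any of these 5 genes.

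Smaller differences of the same direction were seen in Hoxc4, Hoxc6 and Hoxb2. Hoxc4 read 4.61, 4.69, 4.51 and 4.47 in fetal day 30 organoids, against 4.99, 4.92, 4.82 and 5.10 in P0 tissue (-0.39 ± 0.08, adjusted p = 3.5e-04). Hoxc6 read 5.04, 5.0, 4.87 and 4.94 in the organoids, against 5.17, 5.31, 5.37 and 5.38 in P0 tissue (-0.35 ± 0.09, adjusted p = 0.0033). For Hoxb2 the organoids read 5.17, 5.26, 5.03 and 5.14, against 5.62, 5.29, 5.37 and 5.58 in P0 tissue (-0.31 ± 0.10, adjusted p = 0.016). Groups did not overlap for these 3 genes either, though P0 replicate 2 came close to the organoids for Hoxb2, whose call ended without fetal day 30 replicate 3 or P0 replicate 1 or 4 (adjusted p up to 0.067).

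Altogether 8 of 33 members were lower in fetal day 30 organoids, against 14.3% of all genes, and 5 were higher, against 24.3% of all genes. The members' median difference was 0.07, and over all genes it was 0.11. The 5 were all posterior. With centred arrays 9 were higher and 9 lower, against 26.7% and 14.4% of all genes. Of the 5 higher members Hoxb9 was the only one above background in both groups, and its groups overlapped. Hoxb9 read 5.27, 5.84, 5.56 and 5.47 in the organoids, against 5.07, 5.17, 5.26 and 5.34 in P0 tissue (0.32 ± 0.11, adjusted p = 0.027). Its call ended without fetal day 30 replicate 2 or 3 or P0 replicate 1 or 2 (adjusted p up to 0.13) and in a fit of these groups alone (adjusted p = 0.053). Hoxa13, a gene of the hindgut, limb and genital tract, was above background on all 4 organoid arrays, at 4.48 to 4.99, and on 1 of 4 P0 arrays, at 4.26 to 4.44. Hoxa11, Hoxc10 and Hoxd11 were above background in neither group.

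Fetal day 3 organoids were compared with the same P0 arrays, so this comparison is not independent of the one before. Hoxa2 read 4.44, 4.64, 4.47 and 4.58 in fetal day 3 organoids (-1.09 ± 0.10 against P0 tissue, adjusted p = 9.8e-09). Hoxa5 read 5.03, 4.87, 5.18 and 4.70 (-1.01 ± 0.11, adjusted p = 2.1e-07). Both stayed below every P0 array. Hoxb5 read 5.57, 5.12, 4.98 and 4.95 (-0.70 ± 0.14, adjusted p = 3.5e-04), with replicate 1 next to the lowest P0 array at 5.60. Hoxb3 read 5.76, 5.55, 5.38 and 5.45 (-0.51 ± 0.09, adjusted p = 1.1e-04) and overlapped no P0 array. Hoxb6 read 5.52, 5.59, 5.33 and 5.50 in the organoids, against 6.05, 5.88, 6.62 and 6.13 in P0 tissue (-0.69 ± 0.25, adjusted p = 0.03). That call ended without fetal day 3 replicate 1 or 3 or P0 replicate 3 (adjusted p up to 0.11) and without fetal day 3 replicates 2 and 3 (adjusted p = 0.1). Hoxc4 was called at -0.20 ± 0.08 (adjusted p = 0.048) with overlapping groups, and its call ended without any of fetal day 3 replicates 2, 3 and 4 and P0 replicates 1, 2 and 4 (adjusted p up to 0.15).

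Most called members of this comparison were higher in the organoids: 14 of 33, against 30.5% of all genes, with 6 lower, against 13.8% of all genes. The median difference was 0.18 for the members and 0.14 for all genes. Posterior members made up 11 of the 14. The other 3, Hoxb1, Hoxb8 and Hoxd8 (0.20 to 0.28), overlapped, were named after their values were seen and lost their calls with centred arrays. Their calls, and that of Hoxc11, also ended without fetal day 3 replicate 1, among other arrays. Hoxb9 was above background in both groups and read 5.96, 5.84, 5.63 and 5.58 in fetal day 3 organoids, all above the highest P0 array at 5.34 (0.54 ± 0.11, adjusted p = 5.7e-04). Hoxa10 read 4.57, 4.58, 4.59 and 4.29 in the organoids, above background on all 4, and 3.96, 3.88, 4.01 and 4.03 in P0 tissue, above background on 0 of 4. Hoxa13 read 4.91, 4.96, 4.99 and 4.73 in the organoids, above background on all 4, against 4.35, 4.26, 4.31 and 4.44 in P0 tissue, above background on 1 of 4. The groups of these 3 genes did not overlap. Hoxd11, a gene of limb, kidney and posterior gut, read 4.22 to 4.46 in the organoids, above background on 4 of 4, and 3.82 to 3.98 in P0 tissue, above background on 0 of 4. Hoxd10 was above background in neither group. Among the 8 members that were above background in no group of the study, the median difference was 0.24 and 4 were called higher, so a part of the higher calls came from probe sets at background. Negative control medians ran the other way, at 3.84 to 4.04 in fetal day 3 organoids, against 4.28 to 4.43 in P0 tissue. With centred arrays 10 members were higher and 7 lower, against 19.9% and 16.7% of all genes. A second quantile normalization also gave 10 and 7. Without fetal day 3 replicates 2 and 3 there were 14 higher and 4 lower.

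**Figure D3:**
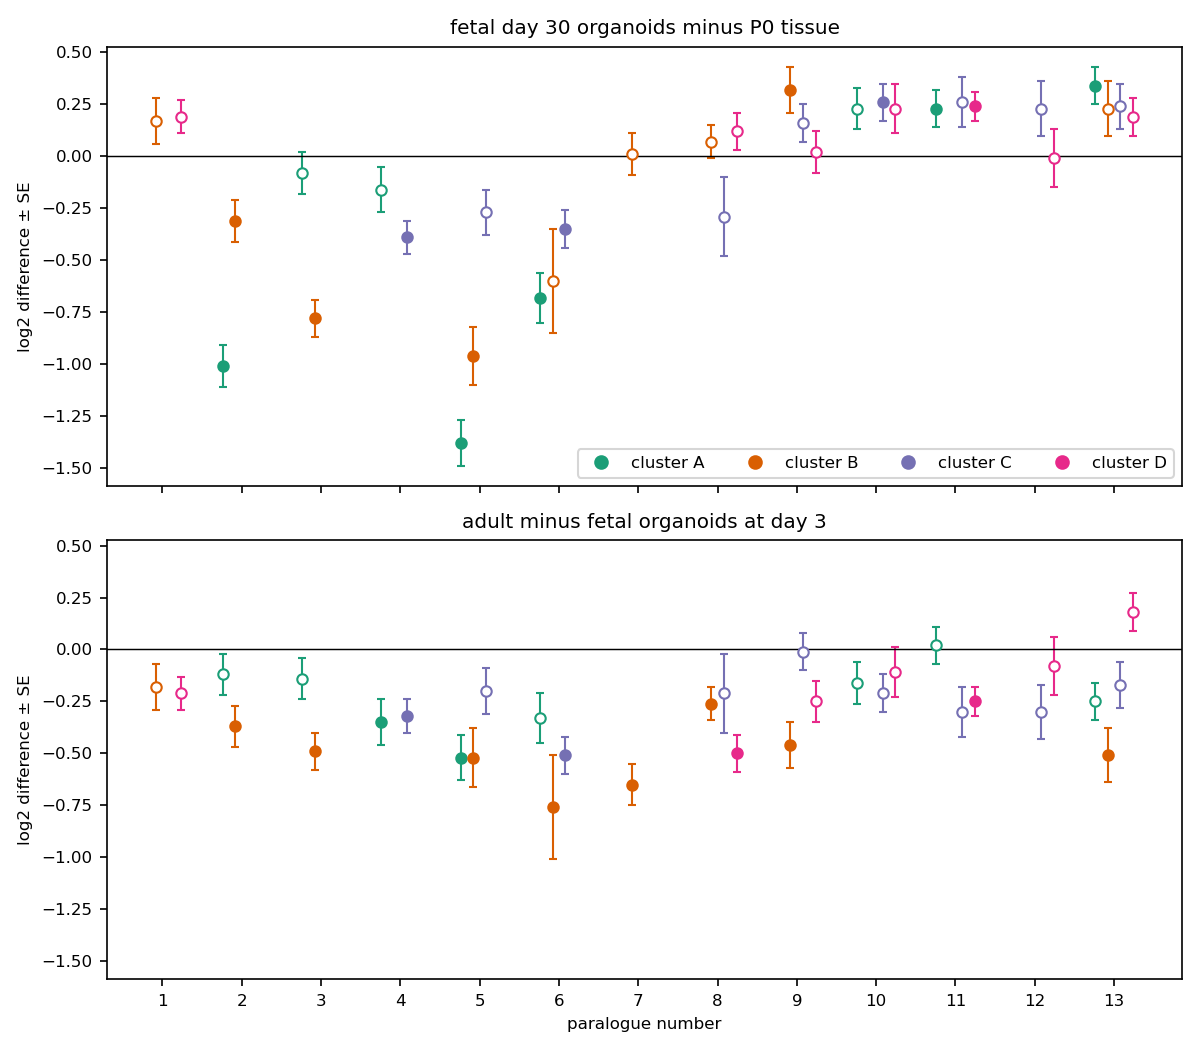
Log2 difference of each member (± SE) by paralogue number, coloured by cluster, with filled points for called members. In fetal day 30 organoids against P0 tissue the 8 lower members have numbers 2 to 6 and the 5 higher ones 9 to 13, while in adult against fetal organoids at day 3 the 14 called members are all lower.

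Adult organoids, as the mean of both culture days, were set against adult tissue. Here 9 of 33 members were lower, against 16.1% of all genes, and 0 were higher, against 24.5% of all genes. At an unadjusted p under 0.05 limma gave 1 higher. Shares of all genes at this threshold were not counted, here or below. The median difference was -0.15 for members and 0.02 for all genes. Of the 9 lower members 7 were central, 1 anterior and 1 posterior. Hoxc6 read 4.85, 4.80, 4.79 and 4.76 in adult day 30 organoids and 4.87, 4.68, 4.87 and 4.68 in adult day 3 organoids, against 5.30, 5.08, 5.24 and 5.52 in adult tissue (-0.50 ± 0.08, adjusted p = 9.8e-06). Hoxc4 read 4.61, 4.38, 4.46 and 4.49 at day 30 and 4.38, 4.42, 4.47 and 4.48 at day 3, against 4.65, 4.73, 4.75 and 4.91 in adult tissue (-0.30 ± 0.07, adjusted p = 8.9e-04). All 8 organoid arrays lay below all 4 tissue arrays for both. Hoxb3 (-0.38 ± 0.08, adjusted p = 3e-04) and Hoxb6 (-0.75 ± 0.22, adjusted p = 0.007) were also called but overlapped, and like the rest of the 9 they were chosen after their values were seen. Hoxb6 read 4.86, 4.89, 4.39 and 5.96 in adult day 30 organoids and 4.28, 4.64, 5.01 and 4.96 in adult day 3 organoids, against 6.02, 5.43, 5.51 and 5.52 in adult tissue, with day 30 replicate 4 inside the tissue range. With centred arrays there were 6 lower and 1 higher, against 14.3% and 27.9% of all genes. Without adult tissue replicate 4 there were 5 lower and 1 higher. Among the calls that ended without that array were Hoxb7 (adjusted p = 0.16) and Hoxd8 (adjusted p = 0.063).

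Hoxa2 was not called between adult organoids and adult tissue (0.11 ± 0.08, adjusted p = 0.35), and Hoxa5 was called at -0.25 ± 0.10 (adjusted p = 0.037) with overlap. The call of Hoxa5 ended without adult tissue replicate 3 or 4 or any of 4 organoid arrays, day 3 replicates 1 and 3 and day 30 replicates 2 and 4 (adjusted p up to 0.18), and with centred arrays or a second quantile normalization (adjusted p up to 0.12). All 13 mesenchymal markers were lower in organoids than in tissue in this comparison and in both comparisons with P0 tissue. Their list means were 5.02 to 5.13 in adult day 30 organoids, 5.10 to 5.90 in adult day 3, 5.03 to 5.27 in fetal day 30 and 5.79 to 6.48 in fetal day 3 organoids. The 12 epithelial markers had means of 10.07 to 10.40 in organoids, against 10.26 to 10.58 in adult and 9.78 to 9.89 in P0 tissue. Over all organoids against both tissues 10 members were lower, against 18.3% of all genes, and 5 higher, against 32.2% of all genes. The medians were 0.04 for members and 0.07 for all genes. The 5 higher members were posterior (Hoxa10, Hoxa11, Hoxa13, Hoxb9 and Hoxd10, 0.17 to 0.30), the 10 lower ones anterior or central, and the groups of all 15 overlapped. Of these, Hoxa11, Hoxd10 and the lower Hoxc5 were above background in no group, so no change is read from them. Hoxa10 was above background in fetal and adult day 3 organoids alone. Among the lower ones, the call of Hoxb2 (-0.15 ± 0.06, adjusted p = 0.046) ended without fetal day 3 replicates 2 and 3 (adjusted p = 0.051). It also ended in 15 of 24 fits that left out 1 array.

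The age difference in organoids was then set against that in tissue, as the adult minus fetal difference of day 30 organoids minus the adult minus P0 difference of tissue. Hoxa2, Hoxa5, Hoxb5 and Hoxb3 had a smaller age difference in organoids. For Hoxa2 the age difference was -0.19 ± 0.10 in day 30 organoids, against -1.31 ± 0.10 in tissue, a difference of 1.12 ± 0.14 (adjusted p = 2.1e-06). For Hoxa5 it was -0.10 ± 0.11 in organoids, against -1.25 ± 0.11 in tissue (1.15 ± 0.16, adjusted p = 9e-06). Adult organoids at day 30 read 4.47, 4.37, 4.44 and 4.39 for Hoxa2, against 4.49 to 4.85 in fetal organoids at day 30. Means in fetal day 30 organoids were 4.60 for Hoxa2 and 4.58 for Hoxa5, where negative control medians were 4.15 to 4.38. A fall as large as in tissue may not have been measurable from there. Hoxb5 gave 0.73 ± 0.20 (adjusted p = 0.0096) and Hoxb3 0.47 ± 0.13 (adjusted p = 0.01). These 4 of 33 members stand against 12.5% of all genes called in this direction, and 4 others, against 8.89% of all genes, were called in the opposite direction. The members' median was -0.14 and that of all genes -0.06. The 4 others, Hoxc10, Hoxc11, Hoxc13 and Hoxd11 (-0.47 to -0.44), were not above background in either tissue, and of them Hoxc11 alone was above background in both day 30 organoid groups. Fetal E19 and newborn P0 are different stages, and the age step is therefore not the same in organoids and tissue. Of the 13 mesenchymal markers 11 also had a smaller fall in organoids, and their part was not tested.

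**Figure D4:**
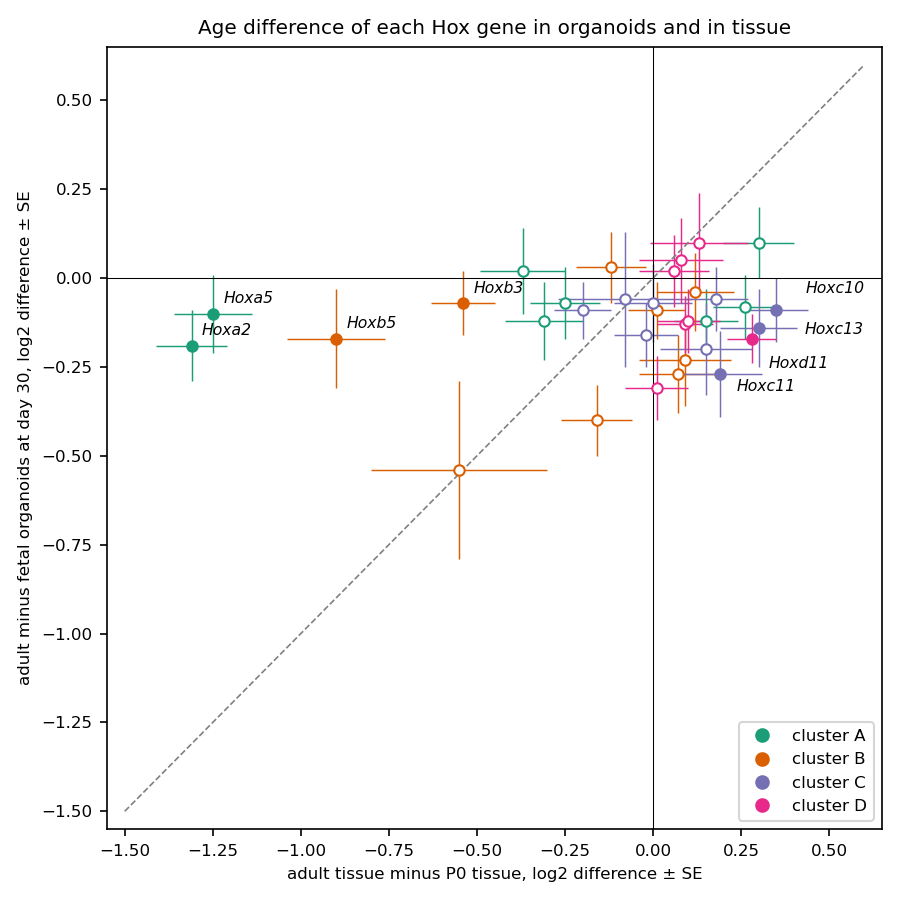
Each point is a Hox gene, with its adult minus P0 difference in tissue (x) and its adult minus fetal difference in day 30 organoids (y), both in log2 with SE; filled points have different age differences in limma's test and the dashed line marks equality. Hoxa2 and Hoxa5 lie at -1.31 and -1.25 in tissue but at -0.19 and -0.10 in organoids.

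Adult organoids had lower Hox signals than fetal organoids at day 3. Of 33 members 14 were lower, against 10.1% of all genes, and 0 higher, against 14.5% of all genes. At an unadjusted p under 0.05 limma also gave 0 higher. The median difference was -0.25 for members and -0.01 for all genes, and 31 of 33 members had a negative difference. The 14 were 9 of 12 central, 3 of 15 posterior and 2 of 6 anterior members. Among these called members only Hoxb13 overlapped between groups, and it was above background in neither group. How often called genes overlap was not counted over all genes, so the separation is not read as a trait of Hox genes.

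The clearest differences by adjusted p were in Hoxb7, Hoxd8, Hoxc6 and Hoxb3. Hoxb7, a central gene of cluster B, read 4.60, 4.85, 4.74 and 4.72 in adult day 3 organoids, against 5.31, 5.39, 5.39 and 5.44 in fetal day 3 organoids (-0.65 ± 0.10, adjusted p = 6.8e-05). Hoxd8 read 5.0, 5.12, 5.03 and 4.95 in adult organoids, against 5.72, 5.49, 5.42 and 5.47 in fetal organoids (-0.50 ± 0.09, adjusted p = 1.5e-04). Hoxc6 read 4.68 to 4.87 in adult organoids, against 5.51, 5.18, 5.29 and 5.15 in fetal organoids (-0.51 ± 0.09, adjusted p = 2e-04). Hoxb3 read 5.03, 5.06, 5.12 and 4.99, against 5.38 to 5.76 in fetal organoids (-0.49 ± 0.09, adjusted p = 3.4e-04). Hoxa5 read 4.40, 4.44, 4.41 and 4.43 in adult organoids, against 4.70 to 5.18 in fetal organoids (-0.52 ± 0.11, adjusted p = 0.0011). Each adult array lay below each fetal array for these 5 genes. Hoxb5 (4.53 to 4.76 in adult and 4.95 to 5.57 in fetal organoids, -0.52), Hoxb9 (5.14 to 5.43 and 5.58 to 5.96, -0.46) and Hoxb2 (5.04 to 5.24 and 5.35 to 5.72, -0.37) showed the same order.

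Hoxb6 read 4.28, 4.64, 5.01 and 4.96 in adult day 3 organoids, against 5.33 to 5.59 in fetal day 3 organoids (-0.76 ± 0.25, adjusted p = 0.028). Its groups were apart, but the call ended without any of fetal replicates 1, 2 and 4 and adult replicates 1 and 2 (adjusted p up to 0.1) and without fetal replicates 2 and 3 (adjusted p = 0.095). Hoxa4, at 4.65 to 4.88 in adult and 4.93 to 5.43 in fetal organoids (-0.35 ± 0.11, adjusted p = 0.026), lost its call without fetal replicate 1 or adult replicate 2 (adjusted p up to 0.11) and in a fit of these groups alone (adjusted p = 0.055). Without fetal day 3 replicate 1, 11 members were lower. Members above background in all groups had a median difference of -0.46, those above in some groups -0.22 and those above in none -0.20. Markers of other cells differed too. Of 13 mesenchymal markers 9 were lower in adult than in fetal day 3 organoids, with list means of 5.10 to 5.90, against 5.79 to 6.48 in fetal day 3 organoids. The stomach markers had means of 4.91 to 5.38 in adult day 3 organoids, against 5.44 to 9.30 in fetal day 3 organoids. The part of these markers in the Hox differences was not tested. Without fetal day 3 replicates 2 and 3, 14 members were lower and 0 higher, and Hoxb7 (-0.65, adjusted p = 0.0021), Hoxd8 (-0.57, adjusted p = 9.1e-04), Hoxc6 (-0.55, adjusted p = 0.0019) and Hoxb3 (-0.56, adjusted p = 0.0015) were still called. Fetal replicate 1, kept in that fit, had a stomach mean of 7.35 and 32 of 33 members above their own mean. These calls are therefore not free of such arrays.

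At day 30, 2 of 33 members were lower in adult than in fetal organoids, against 2.17% of all genes, and 0 were higher, against 6.80% of all genes. At an unadjusted p under 0.05 limma gave 6 lower and 0 higher. The share of all genes at that threshold was not counted, so the 6 are not read as more than in other genes. Hoxd8 read 5.08, 4.91, 5.10 and 5.25 in adult day 30 organoids, against 5.39, 5.56, 5.30 and 5.34 in fetal day 30 organoids (-0.31 ± 0.09, adjusted p = 0.022). Hoxb7 read 4.63, 4.89, 4.76 and 4.81, against 5.30, 5.28, 4.88 and 5.24 in fetal organoids (-0.40 ± 0.10, adjusted p = 0.016). The Hoxd8 groups were apart, and for Hoxb7, named after its values were seen, fetal replicate 3 lay within the adult range. Both calls ended in a fit of these groups alone. That of Hoxd8 ended without fetal replicate 2 or adult replicate 1 or 2 (adjusted p up to 0.094), and that of Hoxb7 without fetal replicate 1 or 2 or adult replicate 1 (adjusted p up to 0.067). Mesenchymal list means at day 30 were 5.02 to 5.13 in adult and 5.03 to 5.27 in fetal organoids, with 0 of 13 markers called. Hoxb7 and Hoxd8 were not called between adult and P0 tissue (-0.16 ± 0.10, adjusted p = 0.27, and 0.01 ± 0.09, adjusted p = 0.94), nor was the difference of the age differences (-0.24 ± 0.15, adjusted p = 0.27, and -0.32 ± 0.12, adjusted p = 0.06).

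Over culture, 6 of 33 members were lower at day 30 than at day 3 in fetal organoids, against 8.76% of all genes, and 0 higher, against 6.77% of all genes. At an unadjusted p under 0.05 limma gave 0 higher. The median was -0.18 for members and -0.03 for all genes. Hoxa6 was lower at day 30, at 5.21, 5.28, 5.16 and 5.12, against 5.96, 5.49, 5.79 and 5.43 at day 3 (-0.47 ± 0.12, adjusted p = 0.01). Hoxb2 read 5.03 to 5.26 at day 30, against 5.35 to 5.72 at day 3 (-0.38 ± 0.10, adjusted p = 0.011). Hoxa5 read 4.44 to 4.70 at day 30, against 4.70 to 5.18 at day 3 (-0.37 ± 0.11, adjusted p = 0.025), and Hoxc6 4.87 to 5.04, against 5.15 to 5.51 (-0.32 ± 0.09, adjusted p = 0.015). None of these 4 overlapped, though the Hoxa5 groups almost touched. Hoxa10 (-0.30 ± 0.10, adjusted p = 0.039) and Hoxb3 (-0.27 ± 0.09, adjusted p = 0.047) overlapped and were named after their values were seen. Of the 6 calls, that of Hoxa6 held under each other filter, scaling, prior and fit and with any array left out. The calls of Hoxa5 and Hoxc6 ended, among others, without fetal day 3 replicate 1 (adjusted p up to 0.1 and 0.063), and that of Hoxb2 in a fit of these groups alone (adjusted p = 0.073). Without fetal day 3 replicate 1, 2 members were lower, and without replicates 2 and 3, 3. Markers of other cells were lower at day 30 as well, 11 of 13 mesenchymal, 5 of 6 endothelial, 5 of 9 leukocyte, 2 of 6 enteric, 5 of 7 stomach and 4 of 5 pancreas markers, with 0 higher in these lists. Their part in the Hox differences was not tested.

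In adult organoids 0 members were lower and 0 higher at day 30 than at day 3, against 0.0228% and 0.0261% of all genes, and at an unadjusted p under 0.05 limma gave 2 lower and 0 higher. Hoxa2 differed by 0.00 ± 0.10 and Hoxb7 by 0.05 ± 0.10. The culture change did not differ between fetal and adult organoids for any member at the adjusted threshold (0 higher and 0 lower, against 1.02% and 1.97% of all genes). An unadjusted p under 0.05 in limma gave 1 higher and 5 lower, with the share of all genes not counted. The fetal day 3 arrays enter this test of culture change, the fetal culture change and both comparisons above that use fetal day 3 organoids. They also enter the comparison of all organoids with both tissues.

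Genes that work with or on Hox genes were counted from lists. Of 8 measured cofactors, 4 were lower and 3 higher in fetal day 30 organoids than in P0 tissue, where 14.3% of all genes were lower and 24.3% higher. Meis1, a partner of many Hox proteins, was lower in adult than in P0 tissue (-2.47 ± 0.16, adjusted p = 2.4e-11). Its mean in fetal day 30 organoids was 4.15, against 7.35 in P0 tissue, and since it was not above background in those organoids or in adult organoids no difference is given for them. Meis2 was lower in fetal day 30 organoids and in adult tissue, each against P0 tissue (-1.57 ± 0.33, adjusted p = 5e-04, and -1.47 ± 0.33, adjusted p = 0.0017), while Pbx4 was higher in both (0.68 ± 0.11, adjusted p = 3.1e-05, and 0.39 ± 0.11, adjusted p = 0.011). In adult tissue 4 of the 8 were lower and 1 higher than in P0 tissue, against 12.2% and 15.0% of all genes. Among 22 measured Polycomb and trithorax genes, whose products keep Hox clusters silent or active, 17 were higher and 2 lower in organoids than in tissue, against 32.2% and 18.3% of all genes. Eed (0.79 ± 0.07, adjusted p = 3.2e-09), Ezh2 (0.70 ± 0.07, adjusted p = 2e-08) and Rnf2 (0.67 ± 0.06, adjusted p = 2e-09) were among the higher ones. The Rnf2 difference was 1.09 between adult organoids and adult tissue, 0.39 between fetal day 3 organoids and P0 tissue and 0.10 between fetal day 30 organoids and P0 tissue, where it was not called (adjusted p = 0.44). Kdm6b, a demethylase that removes the Polycomb mark, was lower in organoids than in tissue (-0.30 ± 0.06, adjusted p = 8e-05). Between adult and P0 tissue 3 of the 22 were higher and 4 lower, and between adult and fetal organoids at day 30 none passed the test.

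Of the 10 measured ParaHox and regional factors, 4 were higher and 2 lower in organoids than in tissue, near the shares of all genes given above. Cdx2, the master factor of intestinal epithelium, was 0.45 ± 0.06 higher (adjusted p = 3.6e-07) and Cdx1 0.49 ± 0.09 higher (adjusted p = 6e-05). The Cdx1 mean was 7.11 in fetal day 3 organoids and 7.84 to 8.06 in the other organoid groups, against 7.29 in adult and 7.19 in P0 tissue. Of 12 mesenchymal homeobox and forkhead factors 6 were lower and 2 higher in organoids than in tissue, with a median difference of -0.17, against -2.59 for the 13 mesenchymal markers. Tcf21 and Foxf2 were among the lower ones. Tcf21 was above background in both tissues, at means of 5.91 in adult and 6.76 in P0 tissue, and in no organoid group, with means of 3.90 to 4.38. Foxf2, above background in both tissues and in fetal day 3 organoids, was lower in fetal day 3 organoids than in P0 tissue (-1.58 ± 0.12, adjusted p = 5.2e-10). Of 13 measured noncoding RNA genes of the Hox clusters 1 was higher and 0 lower in organoids than in tissue, and between fetal day 3 organoids and P0 tissue 4 were higher and 0 lower, a share near the 30.5% of all genes higher there. One of these was Hoxb5os (0.45 ± 0.10, adjusted p = 0.0013). Evx1 and Evx2, homeobox genes at the ends of clusters A and D, were both higher in fetal day 3 organoids than in P0 tissue (0.41 ± 0.07, adjusted p = 8.6e-05, and 0.40 ± 0.07, adjusted p = 5.9e-05).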

How the data were processed

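RNA of 24 arrays was labelled with biotin from Trizol-extracted total RNA, per the labels' protocols. RMA in Affymetrix Expression Console, named in the submitters' processing notes without a version, gave the log2 signals deposited by the authors. The genome build is not given in the sources used here. Probe sets naming 1 gene were kept, the one with the highest mean where a gene had several, which gave 30702 genes. Negative controls were 5222 probe sets.

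A mean per group was fitted over all arrays with limma 3.58.1 (R 4.3.3, 18 residual and 4.25 prior degrees of freedom). Comparisons were tested two-sided per gene, with Benjamini-Hochberg adjustment over all genes, and called at an adjusted p under 0.05. Values are printed for called members whose groups do not overlap (up to 10 with the largest difference) and for called members against the majority. The members and lists were chosen with earlier results of these data known. Alternatives were other summaries of probe sets, filters, scalings and priors, a replicate block, the compared groups alone and each array left out. Python 3.11.15 with pandas 2.3.3, numpy 2.4.6 and matplotlib 3.10.9 made counts and figures. The number of arrays limits precision.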

Additional observations from a re-analysis of the deposited data

Results flagged for a closer look

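In 10 of 198 sets of 4 arrays (33 members in 6 groups), 1 array stood apart from the other 3 by Dixon's criterion at the 95% level. Chance alone gives about 1 in 20, or 9.9 of 198. In adult day 3 organoids these were Hoxa6 in replicate 1 (5.42, against 5.30 to 5.32 on the others), Hoxb1 in replicate 3 (4.86, against 4.54 to 4.58) and Hoxb8 in replicate 4 (4.5, against 4.71 to 4.73). In fetal day 30 organoids they were Hoxa2 in replicate 2 (4.85, against 4.49 to 4.55), Hoxb7 in replicate 3 (4.88, against 5.24 to 5.30) and Hoxd11 in replicate 2 (4.27, against 4.09 to 4.10). In fetal day 3 organoids it was Hoxa10 in replicate 4 (4.29, against 4.57 to 4.59). In adult tissue they were Hoxb6 in replicate 1 (6.02, against 5.43 to 5.52) and Hoxd8 in replicate 4 (5.43, against 5.22 to 5.26), and in P0 tissue Hoxb13 in replicate 4 (3.45, against 3.14 to 3.19). Hoxd11 and Hoxb13 were not above background in those groups.

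The adult minus fetal difference of day 30 organoids and the adult minus P0 difference of tissue differed for 8 members in limma's test. The difference of differences was positive for Hoxa2 (1.12, adjusted p = 2.1e-06), Hoxa5 (1.15, adjusted p = 9e-06), Hoxb3 (0.47, adjusted p = 0.01) and Hoxb5 (0.73, adjusted p = 0.0096). It was negative for Hoxc10 (-0.44, adjusted p = 0.02), Hoxc11 (-0.47, adjusted p = 0.047), Hoxc13 (-0.44, adjusted p = 0.043) and Hoxd11 (-0.44, adjusted p = 0.003), of which the calls of Hoxc11 and Hoxc13 ended in 11 and 12 of the fits that left out 1 array. None of these posterior members was above background in either tissue. Hoxc10 exceeded the negative control median on 0 arrays, and Hoxd11 was not above background in either day 30 organoid group.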

How the results depend on the processing

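Of 98 called differences of members, 65 stayed called with any array left out. Of these, 61 also held under each alternative listed in the processing that kept the gene. The filter tested 58 of the 98, as the others were of members it dropped. No called difference changed direction. A filter that asked for a signal over the array's median on 4 or more arrays kept 13 of 33 members. Hoxa2, Hoxa5 and Hoxb5 passed only through their P0 arrays. The filter left 1 higher member between organoids and tissue, 3 in fetal day 3 and 1 in fetal day 30 organoids against P0 tissue and 0 in adult against P0 tissue, because the other called members were dropped. The 4 members with negative age differences were dropped too, and the 1 negative age difference under the filter was of a member not called in the main fit. Centring each array on its median gave 1 higher member in adult organoids against adult tissue, 9 in fetal day 30 organoids against P0 tissue, 2 in adult against P0 tissue and 3 lower in fetal organoids at day 30 than at day 3. A second quantile normalization gave 1, 1 and 3 for the first, the third and the last of these. With centring, the shares of all genes were 27.9%, 26.7%, 10% and 5.96% in the same order. Shares of all genes were not counted for the other alternatives. Deviations from the group means had r from -0.31 to 0.30 over 60 same-number pairs of arrays, 8 of them above 0.1. Pairs of different number were not compared, so this cannot show whether replicate numbers pair the samples. The replicate block gave 3 higher members in adult against P0 tissue and 2 negative age differences. Fits of the compared groups alone gave 3 higher in adult against P0 tissue, 1 lower in fetal organoids at day 30 than at day 3 and 0 lower in adult than in fetal day 30 organoids. Without fetal day 3 replicates 2 and 3, chosen after seeing the data, 3 members were lower at day 30 than at day 3. With 1 array left out, counts ran from 0 to 1 higher and 5 to 11 lower in adult organoids against adult tissue, from 9 to 16 higher in fetal day 3 and 1 to 6 in fetal day 30 organoids against P0 tissue, from 2 to 5 higher in adult against P0 tissue, from 2 to 6 lower in fetal organoids at day 30 than at day 3, from 0 to 1 higher in adult than in fetal organoids at day 3, from 0 to 3 lower in adult than in fetal organoids at day 30, and from 2 to 5 negative age differences. Apart from the members dropped by the filter, the cause of these changes was not tested. Signals near the negative controls limit what the arrays can show for posterior members.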
